A study of Mus musculus with 32 samples.

Results

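The 37 genes described here are those carried by the mouse mitochondrial genome. They are the rows of the deposited gene table whose symbol begins with mt-, out of 41687 rows in all. By RNA type they fall into 13 mRNA genes, 2 rRNA genes (mt-Rnr1 and mt-Rnr2) and 22 tRNA genes (mt-T followed by a letter for the amino acid). Every mRNA and rRNA gene had counts in all 32 libraries, so that 15 members entered the tests. The 22 tRNA rows did not pass the filter on low counts.

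The RNA came from whole lungs of adult female mice aged 8 to 18 weeks, either wild type C57b/6 (WT, 6 mice) or Bmal1 knock-outs (KO, 6 mice), all bred in-house. Bmal1, listed as Arntl in the table, codes for a core activator of the circadian clock, and the labels do not give the allele, the strain background of the knock-outs or the hour of collection. Each lung gave a RiboZero library, in which ribosomal RNA is pulled down and discarded, and a PolyA library, in which RNA with a poly(A) tail is retained. Mice 3 to 6 of each genotype also gave a NoSelect library, in which neither step was used and 6 preparations per animal were combined. NoSelect started from 15 ng of RNA and the other preparations from 200 ng, so that input and selection cannot be told apart in comparisons with NoSelect. RiboZero and PolyA thus have 6 libraries per genotype and NoSelect 4, and all 3 preparations of an animal come from the same lung.

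Mitochondrial DNA is transcribed from both strands into long precursors, from which the rRNAs and mRNAs are released, in most places, by cutting out the tRNAs that lie between them. Most mouse mitochondrial mRNAs then receive a short poly(A) tail, which for some of them completes the stop codon, while the rRNAs carry few or no added adenosines. The mRNAs code for subunits of complex I (mt-Nd1 to mt-Nd6 and mt-Nd4l), complex III (mt-Cytb), complex IV (mt-Co1 to mt-Co3) and the ATP synthase (mt-Atp6 and mt-Atp8) of oxidative phosphorylation, and mt-Nd6 is the only mRNA gene read from the opposite strand to the others.

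The sequences below are the ends and overlaps to which the values further down refer, read 5′ to 3′ in the sense of each gene from the GENCODE M21 transcripts (GRCm38). The first 4 are 3′ ends of mRNAs, shown because mt-Co3, mt-Nd4 and mt-Cytb end in a lone T (capital) that a tail must extend to a stop codon, whereas mt-Co1 has its stop codon in the DNA (capitals). The next 3 show the overlaps, in capitals, by which mt-Nd4l shares 7 bases with mt-Nd4 and mt-Atp8 shares 43 bases with mt-Atp6. In the last pair, capitals mark the 14 bases that mt-Nd5 and mt-Nd6 share on opposite strands.
mt-Co3, chrM:9345-9390 (+): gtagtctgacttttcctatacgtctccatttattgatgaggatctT
mt-Nd4, chrM:11499-11544 (+): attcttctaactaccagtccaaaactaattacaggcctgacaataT
mt-Cytb, chrM:15243-15288 (+): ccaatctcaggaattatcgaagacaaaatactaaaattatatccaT
mt-Co1, chrM:6825-6872 (+): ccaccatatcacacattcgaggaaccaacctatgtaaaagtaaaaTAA
mt-Nd4l 3′ end, chrM:10114-10173 (+): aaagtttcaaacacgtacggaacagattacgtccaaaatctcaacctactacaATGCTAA
mt-Nd4 5′ end, chrM:10167-10226 (+): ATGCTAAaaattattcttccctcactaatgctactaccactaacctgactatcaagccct
mt-Atp8 3′ end, chrM:7900-7969 (+): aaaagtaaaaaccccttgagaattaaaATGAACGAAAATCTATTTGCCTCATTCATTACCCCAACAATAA
mt-Nd5 3′ end, chrM:13518-13565 (+): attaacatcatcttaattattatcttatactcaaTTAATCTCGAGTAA
mt-Nd6 3′ end, chrM:13552-13599 (-): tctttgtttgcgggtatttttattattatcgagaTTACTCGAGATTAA

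Total estimated counts ran from 11638594 to 115059756 per library. In NoSelect, 69.2% ± 1.35 (SD, n = 8) of all counts lay in the rows of Lars2 and the Gm42418 transcript, against 0.0585% in RiboZero and 0.106% in PolyA. Arntl was lower in KO with no overlap in RiboZero (15.2 to 18.7 against 27.0 to 33.9 normalised CPM) and NoSelect (16.6 to 18.7 against 27.5 to 29.4), while the ranges overlapped in PolyA (17.0 to 20.9 against 19.6 to 23.6). The study's text gives lung as the only tissue, but the tissue label of NoSelect KO6 reads liver. Its 6 lung markers summed to 23139 normalised CPM, the highest of the 8 NoSelect libraries, and its 6 liver markers to 15.0. The other NoSelect libraries had lung marker sums from 15928 normalised CPM, and every lung marker had more than 3 counts in all 32 libraries.

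The 2 rRNAs were highest in NoSelect, lower in RiboZero and lowest in PolyA. They form the RNA of the small (mt-Rnr1, chrM:70-1024) and large (mt-Rnr2, chrM:1094-2675) subunits of the mitochondrial ribosome. Levels are given as CPM (counts relative to the library's scaled total) on 1 scale for all 32 libraries (normalised CPM), divided by gene length in kilobases where genes are set beside each other. In bulk lung a level cannot separate the number of cells of a type from the RNA, or the mitochondria, per cell.

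mt-Rnr1 stood at 31101, 35488 and 42156 normalised CPM per kb (lowest, median, highest) in the 8 NoSelect libraries. It stood at 2140.35, 2579 and 3094 in the 12 RiboZero libraries and at 117, 143 and 190.2 in the 12 PolyA libraries. The 3 sets of libraries did not overlap. mt-Rnr2 stood at 27029, 30633.5 and 37215 normalised CPM per kb in NoSelect, at 7935, 9672 and 11820.0 in RiboZero and at 118, 143 and 189 in PolyA, again with no overlap. RiboZero was thus 13.6-fold lower than NoSelect for mt-Rnr1 (log2 -3.76 ± 0.061 SE, edgeR adjusted p = 3.0e-20) but 3.17-fold lower for mt-Rnr2 (log2 -1.67 ± 0.055, edgeR adjusted p = 3.1e-15). PolyA was 239.8-fold lower than NoSelect for mt-Rnr1 and 202-fold lower for mt-Rnr2 (edgeR adjusted p = 1.1e-23 for each). All of these differences had the same direction in each of the 8 mice with both libraries. Without mouse KO6 the log2 differences were -3.76 and -1.67 for RiboZero and -7.97 and -7.72 for PolyA.

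The balance of the 2 rRNAs, which enter ribosomes in equal number, therefore depended on the preparation. The log2 ratio of mt-Rnr2 to mt-Rnr1 per length was -0.21 ± 0.036 (SD, n = 8) in NoSelect, 0.04 ± 0.100 (n = 12) in PolyA and 1.88 ± 0.064 (n = 12) in RiboZero. RiboZero libraries ran from 1.78 to 1.98, above the highest PolyA library at 0.23. Each of the 3 differences passed the permutation test, at p = 1.6e-05 exact for the comparisons with NoSelect and p = 2.0e-05 with 100000 resamples between PolyA and RiboZero (adjusted p = 4.4e-05 over 33 tests). The smallest p that those resamples can give is 2.0e-05. PolyA libraries still held counts in both rRNA rows. The longest run of A is 7 bases in mt-Rnr2 and 5 in mt-Rnr1, beside 8 in the mRNA gene mt-Nd2. The runs of the rRNAs are shown in capitals within their surroundings, and whether they bear on those counts was not tested.
mt-Rnr2, chrM:1463-1519 (+): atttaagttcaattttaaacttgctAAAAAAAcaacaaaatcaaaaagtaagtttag
mt-Rnr1, chrM:680-734 (+): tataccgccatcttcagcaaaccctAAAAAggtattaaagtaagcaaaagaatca

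**Figure D1:**
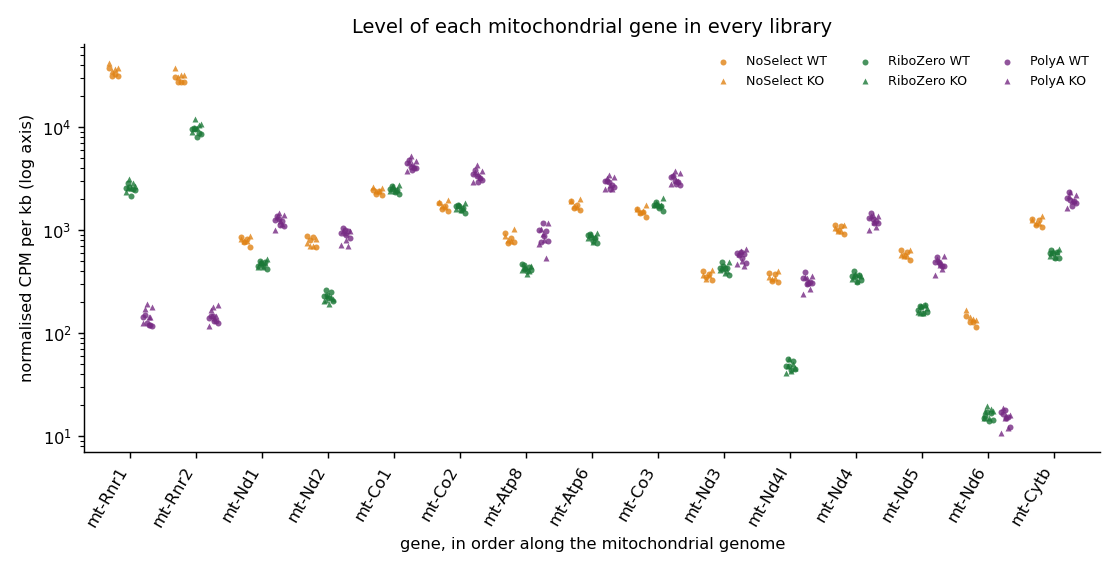
Level of the 15 measured mitochondrial genes in each of 32 libraries, in normalised CPM per kb on a log axis, with genes in their order along the mitochondrial genome, circles for WT and triangles for KO. The rRNA genes span from 117 in PolyA to 42156 in NoSelect, and mt-Nd6 is the lowest mRNA in every preparation.

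The tRNAs, which carry amino acids to the mitochondrial ribosome, were nearly without counts. Of the 22 rows, 21 stood at 0 in all 32 libraries. The deepest library held 115059756 counts, but it was a NoSelect library, and 69.2% of NoSelect counts lay in Lars2 and Gm42418. A count of 0 allows up to 3 counts in a library, for counting error alone. The remaining row, mt-Td (tRNA for aspartate), held 1 count in the WT1 PolyA library and 0 in the other 31. These genes are 59 to 75 bases long, and 14 are read from the same strand as most mRNAs and 8 from the other. The sequence of mt-Td is printed as the only tRNA with any count, with no base in capitals.
mt-Td, chrM:6942-7011 (+): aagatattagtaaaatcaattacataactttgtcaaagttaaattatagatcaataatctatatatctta

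Among the mRNAs, the 12 PolyA libraries held more than the 8 NoSelect libraries for 9 genes and less for 2. The fit was unpaired, and 8 of the PolyA libraries came from lungs that also gave a NoSelect library. Passing here means an edgeR adjusted p under 0.05 over all rows tested, and 13 of the 15 members (both rRNAs included) passed, where 79.1% of all rows did. With a difference of at least 2-fold as well, 2 members were higher (10% of all rows) and 3 lower (15.1% of all rows), and 25.1% of all rows were called in either direction. The complex IV mRNAs, which code for the catalytic core of cytochrome c oxidase, differed most among those that were higher. mt-Co3 was 2.10-fold higher (log2 1.07 ± 0.059 SE, edgeR adjusted p = 5.2e-13), mt-Co2 2.03-fold and mt-Co1 1.85-fold. For mt-Co2 the 2-fold line was crossed only narrowly. Under 5 other settings and without mouse KO6 its log2 difference was 0.96 to 0.99, so that 1 member fewer was called. Over the 8 mice with both libraries the mean log2 difference was 0.97 for mt-Co2 and 1.01 for mt-Co3.

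Of the other mRNAs, mt-Cytb was 1.70-fold higher in PolyA, mt-Atp6 1.66-fold, mt-Nd1 1.60-fold, mt-Nd3 1.56-fold, mt-Nd4 1.25-fold and mt-Nd2 1.20-fold. Among the mRNAs that were higher, those that end in a lone T lay near both ends, with mt-Co3 the highest and mt-Nd4 near the lowest. mt-Co1, with its encoded stop codon, lay between them. mt-Atp8, mt-Nd4l, mt-Nd5 and mt-Nd6, which did not pass as higher, also have their stop codon in the DNA. For mt-Nd1 and mt-Nd2, the last 2 bases overlap the tRNA genes mt-Ti and mt-Tw. Whether the kind of stop codon bears on the difference was not tested. mt-Nd5 was 1.19-fold lower (log2 -0.25 ± 0.064, edgeR adjusted p = 0.0016). mt-Atp8 (log2 0.11, edgeR adjusted p = 0.38) and mt-Nd4l (log2 -0.11, edgeR adjusted p = 0.18) did not pass. With the mouse as a block, which pairs the libraries of a lung, mt-Nd4l did pass (log2 -0.14, edgeR adjusted p = 0.010), and it was lower in PolyA in 8 of 8 mice. It also passed under 4 other settings, DESeq2 (log2 -0.17, adjusted p = 0.032) among them. The median over the 13 mRNAs was 0.64, beside 0.10 over all rows tested.

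RiboZero against NoSelect split the mRNAs in another way. Here 2 mRNAs were higher, 9 mRNAs and both rRNAs were lower, and 13 of 15 members passed, where 45.9% of all rows did. At 2-fold or more, 0 members were higher (1.74% of all rows) and 9 were lower (2.56% of all rows), of 4.3% of rows called. The complex IV mRNAs were close to equal. mt-Co1 (log2 0.06 ± 0.039 SE, edgeR adjusted p = 0.24) and mt-Co2 (log2 -0.07 ± 0.045, edgeR adjusted p = 0.25) did not pass, and mt-Co3 was 1.15-fold higher. With the mouse as a block mt-Co1 (log2 0.05, edgeR adjusted p = 0.0043) and mt-Co2 (log2 -0.08, edgeR adjusted p = 0.00013) passed as well.

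The complex I mRNAs, which code for the membrane core of NADH dehydrogenase, ranged most widely in that comparison. mt-Nd4l stood at 313, 346 and 401 normalised CPM per kb (lowest, median, highest) in NoSelect and at 41.2, 47.8 and 56.2 in RiboZero. The libraries did not overlap, and the difference was 7.37-fold (log2 -2.88 ± 0.061 SE, edgeR adjusted p = 2.4e-18). mt-Nd2 was 3.46-fold lower in RiboZero, mt-Nd5 3.41-fold, mt-Nd4 2.94-fold and mt-Nd1 1.69-fold, while mt-Nd3 was 1.16-fold higher. The ATP synthase and complex III mRNAs lay close together, with mt-Atp6 2.07-fold, mt-Cytb 2.04-fold and mt-Atp8 2.00-fold lower. mt-Atp8 lay just under the 2-fold line (log2 -0.999) and passed it under 6 other settings. Of the 15 genes, 14 differed in 1 direction in 8 of 8 mice, and mt-Co1 was higher in 7 of 8.

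Between PolyA and RiboZero, 12 mRNAs were higher in PolyA, both rRNAs were lower, and only mt-Nd6 did not pass, so that 14 of 15 members passed, where 81.1% of all rows did. At 2-fold or more, 9 members were higher (7% of all rows) and 2 lower (16.6% of all rows), of 23.6% of rows called. The differences ran from 1.30-fold for mt-Nd3 to 6.65-fold for mt-Nd4l (log2 2.73 ± 0.071 SE, edgeR adjusted p = 4.4e-21). mt-Nd2 was 4.05-fold higher and mt-Nd4 3.58-fold, while mt-Co1 was 1.73-fold and mt-Co3 1.78-fold higher. Each of these 12 mRNAs was higher in PolyA in 12 of 12 mice. The 3 comparisons share their libraries, so their values are to be read side by side.

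**Figure D2:**
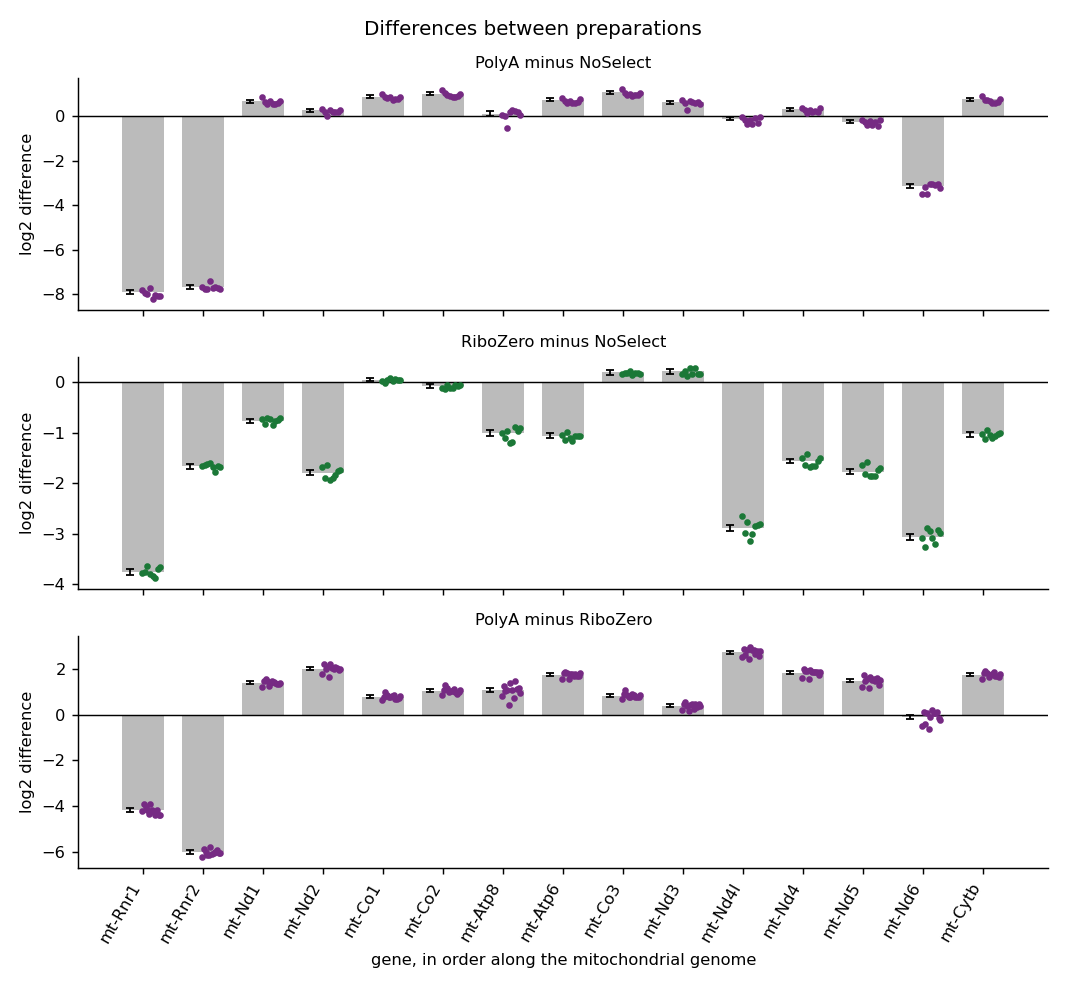
Log2 difference between preparations for each of the 15 genes in genome order. Bars are the fitted edgeR values with the standard error as whiskers, and points are single mice (8 mice in the upper 2 panels, 12 in the lowest). In RiboZero against NoSelect, mt-Co1 and mt-Co2 lie near 0 and mt-Nd4l at -2.88; the vertical scales of the panels differ.

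mt-Nd6 codes for a complex I subunit and is the only mRNA of the opposite strand (chrM:13552-14070, minus strand). It stood at 114, 135 and 167 normalised CPM per kb (lowest, median, highest) in NoSelect, at 14.0, 16.2 and 19.7 in RiboZero and at 10.8, 15.6 and 19.0 in PolyA. NoSelect lay above both other preparations in all its libraries, and those 2 overlapped. The fold was 8.40 between NoSelect and RiboZero (log2 of RiboZero against NoSelect -3.07 ± 0.061 SE, edgeR adjusted p = 7.1e-19) and 8.69 between NoSelect and PolyA (log2 of PolyA against NoSelect -3.12 ± 0.091, edgeR adjusted p = 2.2e-17). PolyA and RiboZero differed by log2 -0.09 (edgeR adjusted p = 0.33), with 2 standard errors reaching from -0.26 to 0.08 and 6 mice on each side of 0.

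Against the 12 other mRNAs of the same library, mt-Nd6 was at log2 -3.03 ± 0.13 (SD, n = 8) per length in NoSelect, -5.60 ± 0.12 (n = 12) in RiboZero and -6.87 ± 0.18 (n = 12) in PolyA. None of the 3 ranges overlapped, and all 3 differences passed the permutation test (adjusted p = 4.4e-05 each). The libraries were made with stranded kits, per the labels' protocols, but whether the counting used strand is not given in the sources used here. Without it, reads of mt-Nd6 and of RNA from the other strand, mt-Nd5 included over the 14 shared bases printed above, cannot be told apart. The depth was lowest in RiboZero, with 144 to 264 counts of mt-Nd6 in a library, against 1826 to 2848 in NoSelect.

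Genes that share a transcript were also counted unequally. mt-Nd4l and mt-Nd4 are read from 1 shared mRNA, and their ratio per length was log2 -0.55 ± 0.047 (SD, n = 8) in NoSelect, -0.98 ± 0.059 (n = 12) in PolyA and -1.87 ± 0.071 (n = 12) in RiboZero. The ranges did not overlap between preparations. mt-Atp8 and mt-Atp6, the other shared mRNA, stood at -1.06 ± 0.052 in NoSelect and -1.002 ± 0.062 in RiboZero, with overlapping ranges, and at -1.70 ± 0.24 in PolyA. PolyA libraries ranged from -2.21 to -1.33 for this pair, the widest spread of any of these ratios. mt-Atp8 is 204 bases long and mt-Nd4l 297, the shortest of the mRNA genes.

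mt-Nd4l has a further limit. All 31-base words of its nuclear copy Gm10222, a pseudogene, are found in mt-Nd4l, and 98.9% of the words of mt-Nd4l are found in other genes. The table gave both rows equal counts in 31 of 32 libraries (within 1e-06) and counts that differed by 0.62 in the other, so that reads were split between them. Their sum was used for the ratio to mt-Nd4 above and for the shares of the summed mRNA per length below. Levels, shares of all counts and the balances of rRNA or mt-Nd6 to mRNA use the own row of mt-Nd4l alone. The share of words found in other genes was 100% for mt-Co2, 99.9% for mt-Co3, 99.5% for mt-Atp6 and 98.1% for mt-Nd3, against 0% for mt-Nd1 and mt-Rnr1 and 2.71% for mt-Rnr2. Apart from Gm10222, the copies of mRNAs with a row in the table held at most 360.8 counts in a library. The copies that hold most of the words of mt-Co2, mt-Co3, mt-Atp6, mt-Nd3 and mt-Nd4 (62.8% of its words in other genes), and 1 of the copies of mt-Co1 (63.9%), were not analysed here.

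Within the mRNAs, mt-Co1 was the most abundant per length in every preparation and mt-Nd6 the least. mt-Co1 made up 26.2% ± 0.35 (SD) of the summed mRNA per length in RiboZero, 19.9% ± 0.67 in PolyA and 17.3% ± 0.55 in NoSelect. mt-Nd6 made up 0.171%, 0.0705% and 0.986% in the same order. The 3 complex IV mRNAs held ranks 1 to 3 in RiboZero and PolyA. In NoSelect mt-Atp6 (12.7%) and mt-Co2 (12.5%) stood at ranks 2 and 3 with overlapping levels, and mt-Co3 followed at 11.0%.

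The middle of the order moved with the preparation. mt-Nd4l held 5.08% of the mRNA sum in NoSelect, 2.93% in PolyA and 1.01% in RiboZero, where it ranked 12. mt-Nd3 went the other way, with 2.64% in NoSelect, 2.56% in PolyA and 4.46% in RiboZero, where it ranked 7 beside mt-Atp8. mt-Nd3 and mt-Atp8 did not separate in RiboZero, where mt-Nd3 was the higher in 6 of 12 libraries. mt-Nd2 and mt-Atp8 in PolyA (5 of 12 libraries) and mt-Nd1 and mt-Nd2 in NoSelect (4 of 8) were likewise not ordered beyond their spread.

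As a share of all counts, the 13 mRNA rows held 3.32% ± 0.30 (SD, n = 12) in PolyA, 1.18% ± 0.061 (n = 12) in RiboZero and 0.466% ± 0.034 (n = 8) in NoSelect. The 2 rRNA rows held 0.0587% ± 0.0077 in PolyA, 2.22% ± 0.20 in RiboZero and 2.88% ± 0.16 in NoSelect. Each pair of preparations differed with no overlap for both shares (permutation test, adjusted p = 4.4e-05). For the mRNA share, the order of RiboZero and NoSelect rested on the denominator. With Lars2 and Gm42418 left out of the total, the mRNA share was 1.51% ± 0.085 in NoSelect against 1.18% ± 0.061 in RiboZero, the reverse order. The rRNA share kept its order but was 9.38% ± 0.81 in NoSelect against 2.22% ± 0.20 in RiboZero on that total, so that their difference went from -0.659 to -7.15 percentage points.

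The sequence properties of the 13 mRNAs were set beside these differences, with and without mt-Nd6. Over the 13 genes, Spearman's rho of the RiboZero to NoSelect difference was -0.38 with position along the genome, 0.33 with the share of words in other genes and -0.06 with the percentage of A. Over the 12 genes without mt-Nd6 these values were -0.26, 0.24 and -0.35. For PolyA against NoSelect, rho was 0.46 with GC percentage, -0.26 with the percentage of A and 0.03 with the longest run of A. Without mt-Nd6 they were 0.38, -0.61 and -0.25, so that the values for A depended on that 1 gene. These are descriptions over few genes that share libraries and overlap in sequence.

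Loss of Bmal1 was tested within each preparation. The edgeR test called 0 of 15 members in RiboZero, where 3.46% of all rows passed, 0 in PolyA (4.03% of all rows) and 0 in NoSelect (2.17% of all rows). At an unadjusted p under 0.05, edgeR gave 2 members in RiboZero (mt-Rnr2 and mt-Nd2), 1 in PolyA (mt-Rnr1) and 1 in NoSelect (mt-Rnr2), beside 16.4%, 18% and 15.7% of all rows, so that the members' counts were not above the background. DESeq2 called 0, 0 and 1 at an adjusted p under 0.05, the last being mt-Rnr2 in NoSelect, beside 5.84%, 7.88% and 5.24% of all rows. The fitted KO to WT differences of the 13 mRNAs ran from log2 -0.14 to 0.14 in RiboZero, from -0.19 to 0.08 in PolyA and from -0.12 to 0.16 in NoSelect. Their medians were 0.02, -0.08 and 0.06.

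The bounds at 2 standard errors are only a rough guide to what these libraries leave room for. They can be too narrow: for mt-Nd2 in PolyA the bounds were -0.37 and -0.0077, while the edgeR unadjusted p was 0.058. Over the 15 members they reached from log2 -0.26 to 0.33 in RiboZero, from -0.45 to 0.46 in PolyA and from -0.28 to 0.38 in NoSelect. mt-Nd2, a complex I mRNA, had the lowest KO value of the 15 in each preparation, at log2 -0.14 ± 0.061 (SE), -0.19 ± 0.090 and -0.12 ± 0.082 in the same order (edgeR adjusted p = 0.29, 0.30 and 0.55). In RiboZero mt-Nd2 stood at 214.7, 239.6 and 269 normalised CPM in WT and 197, 221 and 239.9 in KO (lowest, median, highest), so that the groups overlapped. The 3 tests share mice, so they are not separate evidence.

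**Figure D3:**
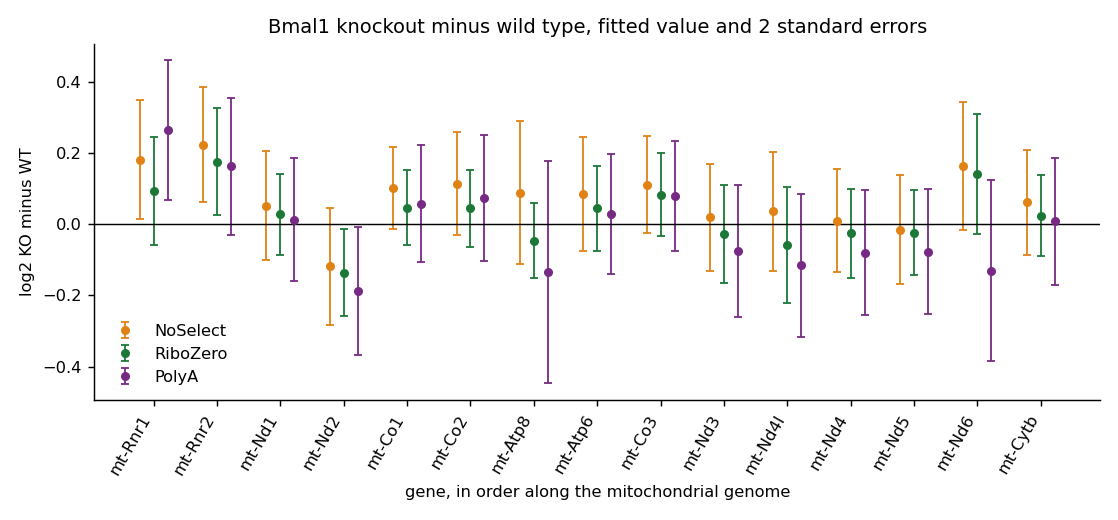
Fitted log2 difference between KO and WT for each of the 15 genes in each preparation, with bars of 2 standard errors; positive values are higher in KO. Both rRNA genes lie above 0 in all 3 preparations, mt-Nd2 lies below 0, and none of the 15 genes passed the adjusted test.

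Both rRNAs had positive KO values in every preparation, but the preparations share mice and are not separate evidence. mt-Rnr2 was at log2 0.18 ± 0.075 (SE) in RiboZero, 0.16 ± 0.096 in PolyA and 0.22 ± 0.081 in NoSelect (edgeR adjusted p = 0.26, 0.41 and 0.23). mt-Rnr1 was at 0.09 ± 0.076, 0.26 ± 0.098 and 0.18 ± 0.083 (edgeR adjusted p = 0.60, 0.17 and 0.34). With 1 library left out, the mt-Rnr1 value ran from 0.05 (without WT4 or KO3) to 0.13 in RiboZero and from 0.21 to 0.32 in PolyA. With mice 3 to 6 alone it was 0.21 in RiboZero and 0.41 in PolyA (edgeR adjusted p = 0.28 and 0.057), and mt-Rnr2 was 0.29 in RiboZero and 0.26 in PolyA (edgeR adjusted p = 0.13 and 0.21). In a fit of all 32 libraries mt-Rnr1 passed in PolyA (log2 0.30, edgeR adjusted p = 0.039). That fit had no term for the mouse, and 1564 of all rows passed in PolyA, where 694 did in the main fit.

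The single values show how far the groups overlapped. mt-Rnr2 stood at 48515, 42760.1, 43262.5 and 43380 normalised CPM in NoSelect WT3 to WT6 and at 58874, 48410, 50203 and 50716 in NoSelect KO3 to KO6. The highest WT library lay above the lowest KO library by a small margin, and the 3 other WT libraries lay below all KO libraries. In PolyA, mt-Rnr1 stood at 111, 117 and 143 normalised CPM in WT and at 121, 149.8 and 182 in KO (lowest, median, highest). WT1 and WT2 were the 2 WT libraries within the KO range.

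The balance of rRNA to mRNA within a library separated the genotypes in PolyA. The log2 ratio of rRNA to mRNA counts was -5.95, -5.93 and -5.86 in WT and -5.84, -5.72 and -5.62 in KO (lowest, median, highest), with no overlap. The difference of 0.17 (WT -5.91 ± 0.039, KO -5.74 ± 0.083, SD, n = 6 each) had an exact permutation p = 0.0022, two-sided, the smallest that 6 against 6 allows, and an adjusted p = 0.0045 over 33 tests. It was 0.15 to 0.19 when any 1 library was left out. The 33 tests pool comparisons of genotypes with comparisons of preparations. The low p of the latter makes the adjusted p of genotype tests smaller than genotype comparisons alone would give. An adjustment over genotype comparisons alone was not made. In the PolyA libraries the rRNA rows held 0.0587% of counts, so the ratio concerns a small remainder of rRNA.

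In the other preparations the same ratio was higher in KO by a like amount but did not pass. These libraries come from the same lungs as the PolyA libraries, so they are not separate evidence. In RiboZero it was 0.74, 0.88 and 0.91 in WT and 0.86, 0.97 and 1.13 in KO, a difference of 0.13 (exact permutation p = 0.052, adjusted p = 0.090). In NoSelect the WT libraries stood at 2.58, 2.54, 2.48 and 2.64 and the KO libraries at 2.84, 2.67, 2.73 and 2.57 (mice 3 to 6), a difference of 0.14 (exact permutation p = 0.086, adjusted p = 0.13; 4 against 4 cannot go below 0.029). Without KO6 the NoSelect difference was 0.19 (exact permutation p = 0.057). The groups overlapped in both preparations. The KO3 RiboZero library, with the highest ratio at 1.13, was also the shallowest of all 32. Whether the genotype difference in this ratio differs between preparations was not tested.

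Some markers of cell types had ranges that did not overlap between genotypes. The markers are given by their ranges alone. The share of all rows without overlap was not counted, so the markers are not set against a background. Of the 6 lung markers, Sftpa1, a surfactant protein of alveolar type 2 cells, was lower in KO with no overlap in all 3 preparations, at 1192 to 1684 normalised CPM against 1709 to 2308 in WT in RiboZero, 970 to 1490.1 against 1591 to 2307 in PolyA and 1040.1 to 1404 against 1649 to 1893 in NoSelect. Ager, a marker of alveolar type 1 cells, was higher in KO with no overlap in RiboZero (1027.5 to 1196 against 873 to 1026.9) and NoSelect (908 to 1074 against 781 to 882), and Scgb1a1, a club cell marker, in NoSelect (10514 to 12739.5 against 7406 to 10099.5). Sftpc and Sftpb, the other surfactant genes listed, overlapped between genotypes in all 3 preparations, as did Cldn18. In RiboZero Sftpc ran from 3583 to 5398 normalised CPM in KO and from 3778 to 5147 in WT. Ager overlapped in PolyA (1379 to 1662 against 1113 to 1490), and Scgb1a1 in PolyA and RiboZero. The summed lung markers overlapped between genotypes in all 3 preparations. The 6 liver markers summed to 4.24 to 5.70 normalised CPM in KO against 1.68 to 4.25 in WT in PolyA, to 11.2 to 17.1 against 3.09 to 9.95 in RiboZero and to 7.88 to 15.8 against 2.92 to 9.21 in NoSelect, with overlap in PolyA and NoSelect. Most of that sum was the single gene Apob in KO RiboZero, with a median of 13.5 normalised CPM, while Alb had medians of 0.32 in KO and 0.34 in WT there and Ttr and Cyp3a11 had medians of at most 0.040 in every group. The 10 heart muscle markers, whose cells are rich in mitochondria, summed to 83.7 to 498 in KO and 166 to 724 in WT in PolyA, with overlap. The 5 brown fat markers summed to 0.920 to 8.27 over all groups, with Elovl3 at or under 3 counts in all libraries. The 4 red cell markers overlapped between genotypes in all 3 preparations. The part of any of these cells in the genotype values was not tested.

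**Figure D4:**
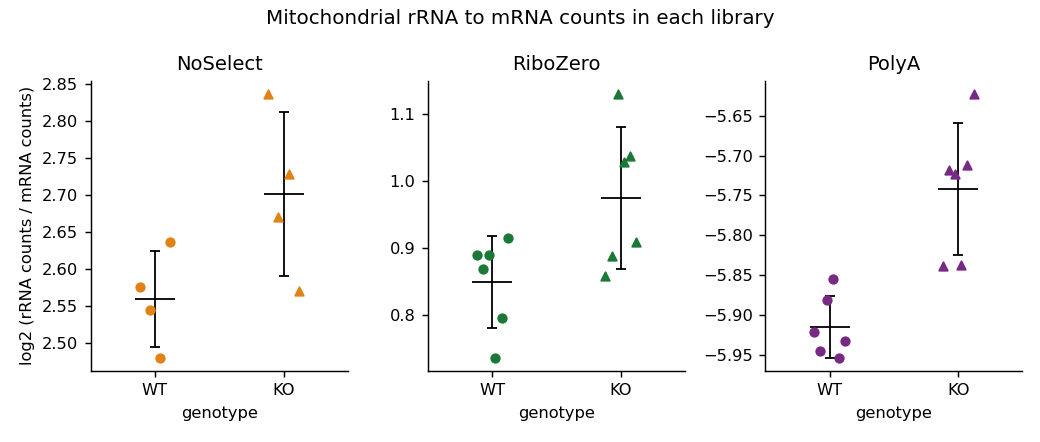
Log2 ratio of mitochondrial rRNA to mRNA counts in each library, by genotype and preparation, with the mean and SD; each panel has its own vertical range. In PolyA the 6 KO libraries (-5.84 to -5.62) lie above the 6 WT libraries (-5.95 to -5.86), while the groups overlap in RiboZero and NoSelect.

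None of the other balances passed after adjustment. In RiboZero the rRNA share was 2.34% ± 0.17 (SD) in KO and 2.11% ± 0.18 in WT (exact permutation p = 0.039, adjusted p = 0.071), and log2 mt-Rnr2 to mt-Rnr1 per length was 0.08 higher in KO (exact permutation p = 0.030, adjusted p = 0.059). In PolyA the latter was 0.11 lower in KO, the other direction (exact permutation p = 0.058, adjusted p = 0.096). The share of counts in mRNA rows was 3.34% in KO and 3.31% in WT in PolyA (exact permutation p = 0.83), and 1.19% against 1.17% in RiboZero (exact permutation p = 0.57).

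The KO effect itself was compared between preparations by the interaction of genotype and preparation. The edgeR test called 0 of 15 members and 0% of all rows for each of the 3 pairs, with 0 members at an unadjusted p under 0.05. DESeq2 called 0 members, and so did edgeR with the mouse as a block. The fit reported was unpaired, so its bounds and p do not measure the spread of the difference within a mouse. The lowest unadjusted edgeR p was that of mt-Nd6, whose KO values were log2 0.14 in RiboZero, -0.13 in PolyA and 0.16 in NoSelect. Its KO effect in PolyA minus that in NoSelect was log2 -0.31, with 2 standard errors reaching from -0.65 to 0.03 (edgeR unadjusted p = 0.081). Minus that in RiboZero it was log2 -0.25, from -0.57 to 0.08 (edgeR unadjusted p = 0.14). For mt-Rnr1 the KO effect in PolyA exceeded that in RiboZero by log2 0.19, with 2 standard errors reaching from -0.07 to 0.46.

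Nuclear genes that transcribe, copy and process mitochondrial nucleic acids gave no call with edgeR either. Of 42 listed genes 41 were tested: 13 of transcription and its regulators, such as the polymerase Polrmt and the factor Tfam, 5 of DNA replication, such as the polymerase Polg, and 23 of RNA processing, tailing and decay, such as Lrpprc, which stabilises mitochondrial mRNAs. With edgeR, 0 passed in each of the 3 preparations, and 3, 6 and 3 had an unadjusted p under 0.05 in RiboZero, PolyA and NoSelect, in each case a smaller share than the 16.4%, 18% and 15.7% of all rows. DESeq2 called 0, 2 and 0, the 2 in PolyA being Esrra and Mterf4, which are named here after their values were seen; 7.88% of all rows passed with DESeq2 there, more than the share of these genes. The KO to WT differences of the 41 genes had a median of log2 -0.01 in RiboZero, -0.02 in PolyA and -0.01 in NoSelect, beside -1.2e-05, -0.0029 and 0.00053 over all rows.

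Mice with more mitochondrial mRNA in 1 preparation tended to have more in another. The log2 normalised CPM of the 13 mRNA rows summed gave Pearson's r = 0.80 (permutation p = 0.0021, adjusted p = 0.0053 over 10 values) and Spearman's rho = 0.88 (permutation p = 0.00043) between PolyA and RiboZero over 12 mice. Without the 2 mice farthest from the median PolyA level r was 0.85. Within WT r was 0.90 (n = 6, exact p = 0.021) and rho 0.89 (exact p = 0.033). Within KO r was 0.77 (n = 6, exact p = 0.088, adjusted p = 0.097) and rho 0.77 (exact p = 0.10).

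Over the 8 mice with NoSelect libraries the relation held with each of the other preparations. It was r = 0.93 and rho = 0.95 between RiboZero and NoSelect (exact p = 0.0011 for each), and r = 0.82 without the 2 mice farthest from the median. Between PolyA and NoSelect it was r = 0.76 (exact p = 0.027) and rho = 0.88 (exact p = 0.0072), and r = 0.73 without 2 mice. KO6 had the highest sum in RiboZero (log2 13.33) and NoSelect (13.83), and KO3 the highest in PolyA (14.59). WT6 had the lowest sum in RiboZero (13.04) and NoSelect (13.52). The 2 mice farthest from the median in RiboZero against NoSelect were WT6 and KO6.

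**Figure D5:**
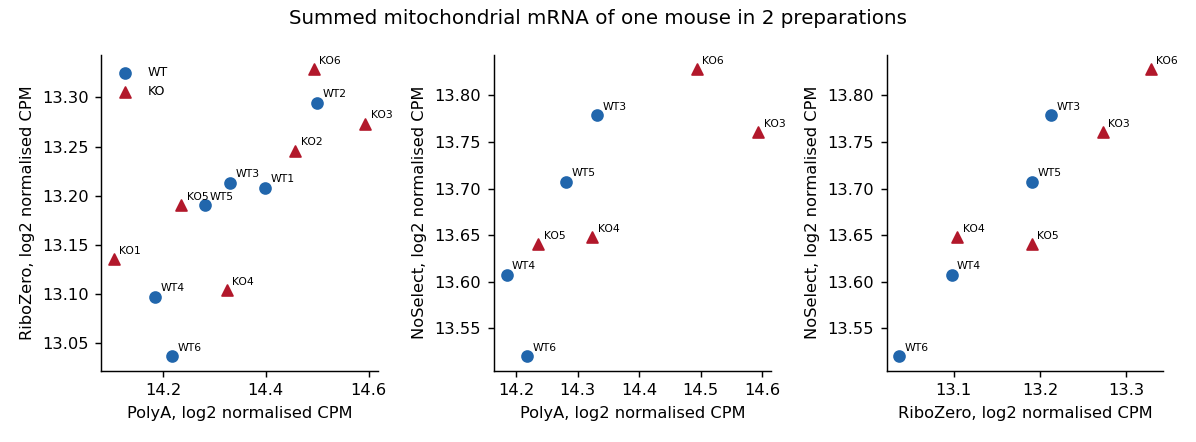
Summed level of the 13 mitochondrial mRNA rows of each mouse in 2 preparations, in log2 normalised CPM, with 12 mice in the left panel and 8 in the others; circles are WT and triangles KO. Mice high in 1 preparation tend to be high in the other, with KO6 at the top of the RiboZero and NoSelect axes and WT6 at the bottom.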

How the data were processed

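Estimated counts (salmon's expected counts, 1 value per row and library) were deposited by the authors in 1 table covering 32 libraries. Salmon 1.4.0, UMI-tools 1.1.1 and the genome build GRCm38 are named, with no role or order, per the submitters' processing notes. The index, the annotation and the use of strand in counting are not given in the sources used here. Of the deposited values 12.8% were not whole (tolerance 1e-06). The table has 41687 rows, 37751 with a gene and 3936 with a transcript identifier, and symbols were matched for 37649. Each of the 32 columns carries the name of its library, and 0 were unused.

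Counts were rounded and tested in R 4.3.3 with edgeR 4.0.16 (TMM scaling, filterByExpr, glmQLFit, glmQLFTest, Benjamini-Hochberg adjustment over all rows tested). The standard error of an edgeR difference was taken as its absolute log2 value divided by the square root of the F statistic. Genotypes were compared within a preparation. Preparations were compared with genotype as a covariate, and there a call needed an adjusted p under 0.05 and a log2 difference of at least 1. Levels are CPM on TMM-scaled totals of all 32 libraries. They are relative to the other RNA of a library, so a difference between preparations is not an absolute amount. The 6 measures of balance per library were compared by two-sided permutation tests, exact or with 100000 resamples. They were adjusted over the 33 that could be tested, between genotypes and between preparations together, and 3 on tRNA had no variation. Python 3.11.15 with scipy 1.17.1 was used. Lengths, coordinates and sequences are from GENCODE M21 (GRCm38), and nuclear copies were found by shared 31-base words. edgeR was also run on simulated counts of known change.

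Libraries of a mouse are paired through the animal: their deviations from group means correlated at 0.54 to 0.79 in all pairs of preparations. The fits reported are unpaired, and the mouse was a block in an alternative. Replicates differed by 6.67 to 65.9 times the sampling noise (chi-square per degree of freedom, 72 pairs within groups), so each library counts once. Other settings were median-of-ratios scaling, scaling without the mitochondrial and 2 rRNA-related rows, DESeq2 1.42.0, other filters, copies added, and libraries left out. All mt- rows are accounted for, and listed nuclear genes were to be named if they passed. Members and lists were chosen with earlier results of these data known.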

Additional observations from a re-analysis of the deposited data

Results flagged for a closer look

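In 3 of 120 groups of 4 or 6 libraries, 1 library stood apart from the rest of its group by more than a range test at the 95% level allows. Chance gives about 1 in 20. mt-Rnr2 stood at 48515 normalised CPM in NoSelect WT3, where the other WT libraries lay between 42760.1 and 43380. mt-Nd5 stood at 1161 normalised CPM in NoSelect KO6, where the other KO libraries lay between 1013 and 1035. The mRNA rows held 0.517% of counts in NoSelect KO6, against 0.433% to 0.446% in the other KO libraries. NoSelect KO6 is the library with the liver label and the largest total, 115059756 counts.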

How the results depend on the processing

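Which members were called changed little. The 9 RiboZero to NoSelect calls became 10 under 6 settings, by mt-Atp8, and the 5 PolyA to NoSelect calls became 4 under 5 settings and without mouse KO6, by mt-Co2. The 11 PolyA to RiboZero calls stayed 11 in number under all settings run. In KO against WT, members passing went from 0 to 1 in PolyA with all 32 libraries in 1 fit (mt-Rnr1) and from 0 to 1 in NoSelect with DESeq2 (mt-Rnr2). Over all rows, the number passing rose from 694 to 1564 and from 372 to 878 under the same settings.

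The mRNA share without Lars2 and Gm42418 in the total reversed its KO to WT difference in NoSelect to 0.0279 percentage points and its RiboZero to NoSelect difference to -0.332. The rRNA share's KO to WT difference in NoSelect went from 0.194 to 1.11 points (exact permutation p = 0.11 and 0.086). With mice 3 to 6 alone, KO values near 0 changed sign in RiboZero, to 0.01 for mt-Atp8 (0.0075), 0.03 for mt-Nd3 (0.027) and mt-Nd4l (0.0286), 0.0512 for mt-Nd4 and 0.0459 for mt-Nd5, and in PolyA to 0.0252 for mt-Nd4l, 0.0207 for mt-Nd4 and 0.0177 for mt-Nd5. None of these passed the test in either setting. The cause was not tested.

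Leaving out 1 library at a time moved these KO to WT differences across 0. In NoSelect they ran from -0.0059 to 0.1077 for mt-Nd1, -0.0304 to 0.0682 for mt-Nd3, -0.0380 to 0.0542 for mt-Nd4, -0.0206 to 0.0868 for mt-Nd4l and -0.0699 to 0.0345 for mt-Nd5. In PolyA they ran from -0.0125 to 0.0737 for mt-Atp6, -0.0328 to 0.0700 for mt-Cytb and -0.0319 to 0.0722 for mt-Nd1. In RiboZero they ran from -0.0040 to 0.0512 for mt-Cytb, -0.0028 to 0.0508 for mt-Nd1, -0.0764 to 0.0091 for mt-Nd3 and -0.0608 to 0.0135 for mt-Nd4.

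Among the balances whose sign or side of the threshold moved, leaving out 1 library gave for PolyA -0.0627 to 0.126 for the mRNA percentage, 0.00594 to 0.0103 for the rRNA percentage, -0.133 to -0.0800 for log2 mt-Rnr2 to mt-Rnr1 and -0.21 to -0.12 for log2 mt-Nd6 to other mRNA. The mRNA percentage in PolyA changed sign without KO3 or WT4. For RiboZero it gave 0.178 to 0.277 for the rRNA percentage, 0.0949 to 0.149 for log2 rRNA to mRNA and 0.0687 to 0.0944 for log2 mt-Rnr2 to mt-Rnr1. The exact permutation p of the RiboZero log2 rRNA to mRNA difference ran from 0.030 to 0.10, under 0.05 without KO1, KO2 or WT6.

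Counts over all rows moved more. For KO against WT they were 976 (DESeq2), 891 (all libraries), 372 (replicate block) and 255 (mice 3 to 6) in RiboZero, where 579 passed, and 380 to 644 with 1 library left out. In PolyA they were 1355 (DESeq2) and 1564 (all libraries), where 694 passed, and 442 to 1066. In NoSelect they were 878 (DESeq2) and 103 (replicate block), where 372 passed, and 148 to 472. With no filter 7039 rows were called between PolyA and NoSelect (4619 before) and 6552 between PolyA and RiboZero (4292 before). With at least 10 counts in every library, and so fewer rows tested, 2902 and 2560 were called, and 301 between RiboZero and NoSelect (752 before). For the interaction DESeq2 called 13, 9 and 11 rows, and the mouse block 1 row each for RiboZero against NoSelect and PolyA against RiboZero, where edgeR called 0.

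With the mouse block mt-Nd4l (PolyA against NoSelect), mt-Co1 and mt-Co2 (RiboZero against NoSelect) also passed, and mt-Atp8 crossed 2-fold (log2 -1.03). The tRNA share gave no value under this block. Between WT and KO, equal numbers are different animals: their correlations ran from -0.23 to 0.32, and only 2 of the PolyA, 1 of the RiboZero and 0 of the NoSelect pairs correlated best with their own number. Of the 15 members tested, counting precision is lowest for mt-Nd6 in RiboZero, which rests on 144 to 264 counts a library.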
